A study of Rattus norvegicus with 2 samples.

Results

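The genes described here encode glucose and lactate carriers, the enzymes of glycolysis, regulators of pyruvate entry into mitochondria, and further metabolic genes known to be induced by low oxygen. They were read in rat endothelial cultures from the aorta and from the endocardium, the cell layer that lines the heart chambers. A list of 38 genes was matched by symbol to the probe sets of the array, each probe set being a group of short oligonucleotides read together for 1 transcript. Only probe sets whose platform annotation gave exactly 1 symbol were used, and 59 probe sets of 32 members met that rule, out of 8740 probe sets and 4736 genes in all. The members were chosen by pathway with the endocardial over aortic ratios of these same arrays known, so their values are a description.

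Aortic and endocardial cells came from the same 2 rats, were pooled by origin, passaged 2 times under culture conditions and confluence kept closely alike, and lysed for total RNA. Each pool was hybridised to 1 Affymetrix rat U34A array, giving 1 aortic and 1 endocardial array. The sources used here do not give strain, sex, age or the oxygen tension of the culture. No difference below has a replicate check, no test across samples was possible, and the spread between cultures of 1 origin is unknown.

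Glycolysis splits glucose into pyruvate in the cytosol, and lactate dehydrogenase and the monocarboxylate transporters dispose of that pyruvate as lactate. Endothelial cells are known to draw most of their ATP from this pathway. In low oxygen the transcription factor HIF-1, a dimer of Hif1a and Arnt, escapes the prolyl hydroxylases that mark it for degradation and activates glucose carriers, glycolytic enzymes and genes that restrain mitochondrial respiration. It binds a short core motif, ACGTG or GCGTG, in its target promoters and enhancers.

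Most of these genes were dimmer on the endocardial array. The carriers that bring glucose in and take lactate out (Slc2a1, Slc16a1 and Slc16a3) were 2.82-fold to 4.50-fold lower there, and Hif1a was 3.12-fold lower. Ndufa4l2, a HIF-1 target that is known to lower the activity of respiratory complex I, was at least 15.0-fold lower. The catalytic enzymes of glycolysis were mostly lower by less than 2-fold. Brighter on the endocardial array were 8 members, of which Pfkfb4 passed 2-fold. Ldhb, Pgam2, Plod2 and Mxi1 were higher by less than 2-fold, and Pdha1, Egln3 and Pdk2 by at most 1.06-fold.

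Of the 38 members, 30 were measured, which means that at least 1 probe set exceeded a floor of 635.0, the median of all scaled intensities. Another 2 members, Pfkfb2 and Eno3, reached the floor on neither array, and 6 (Gpi, Tpi1, Gapdh, Eno2, Ldha and Bnip3) had none that met the rule. Of the 30 measured members, 10 were at least 2-fold lower on the endocardial array, where 4.16% of all 2935 measured genes were. In the other direction 1 member passed 2-fold, against 5.93% of all genes. By any amount, 22 members were lower, against 52.3% of all genes. The median log2 ratio (endocardial over aortic) was -0.46 over the measured members and -0.02 over all measured genes. Among the 50 member probe sets above the floor on at least 1 array, 17 were at least 2-fold lower on the endocardial array, against 4.83% of all 4808 such probe sets, and 2 were at least 2-fold higher, against 6.61%. By any amount 40 of the 50 were lower, against 53.1%. A member above the floor on the aortic array alone could only be lower, and 44 of the 50 probe sets were above it on both.

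The floor bears on the count. The arrays carry 38 background control probe sets, designed to opposite strands or to transcripts of other species, and the brightest of their values was 1743.4. With the floor at that value 26 members were measured and 5 were at least 2-fold lower (Slc2a1, Slc16a1, Slc16a3, Hif1a and Ndufa4l2), against 2.36% of all genes, and 0 were at least 2-fold higher, against 3.99%. For Hk2, Aldoc, Pdk1 and Ak4 the call at 2-fold therefore rests on an endocardial value under that control. Higd1a lost its call because its dim probe set was then only 1.08-fold lower, while its bright one stayed 2.94-fold lower with both values above that control.

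**Figure D1:**
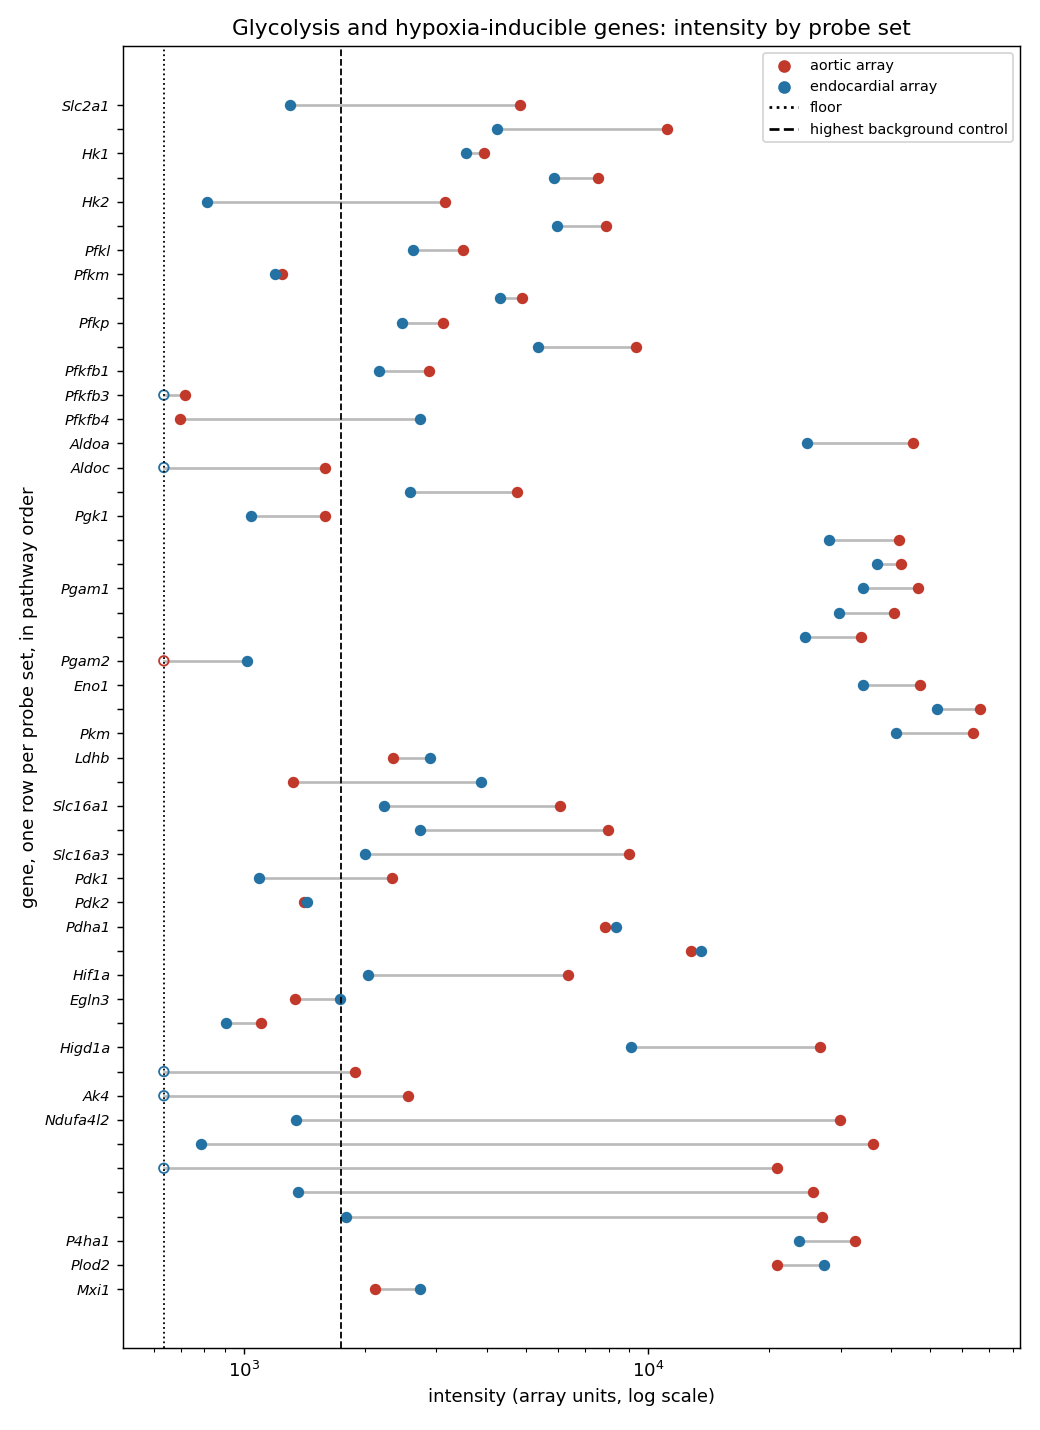
Intensity of each of the 50 member probe sets above the floor on at least 1 array (log axis, array units), on the aortic (red) and endocardial (blue) array, with a line joining the pair. Open circles are values at or under the floor of 635.0, drawn at the floor, and the dashed line is the brightest background control (1743.4); 40 of the 50 pairs have the endocardial point on the left.

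The promoters of members are shown because HIF-1 recognises a short motif and many members are listed as its targets. Promoter windows from RefSeq (build GRCr8), cut to the 250 bases before the annotated start, were found for 37 of the 38 members, and Pgk1 was the member without one. The 7 windows below read 5' to 3' on the strand of the gene, with every match to ACGTG or GCGTG, or to their reverse complements CACGT and CACGC, in capitals; a CACGTG would count on both strands. They belong to carriers and hypoxia-inducible members that were lower (Slc2a1 at chr5:138002272-138002521, Pdk1 at chr3:77113264-77113513, Higd1a at chr8:130400889-130401138 on the minus strand, Ak4 at chr5:121154886-121155135, Slc16a3 at chr10:106712078-106712327 and Ndufa4l2 at chr7:65241919-65242168) and, for contrast, to Plod2 at chr8:101964068-101964317, which was not lower. Windows without a strand named are on the plus strand.
Slc2a1: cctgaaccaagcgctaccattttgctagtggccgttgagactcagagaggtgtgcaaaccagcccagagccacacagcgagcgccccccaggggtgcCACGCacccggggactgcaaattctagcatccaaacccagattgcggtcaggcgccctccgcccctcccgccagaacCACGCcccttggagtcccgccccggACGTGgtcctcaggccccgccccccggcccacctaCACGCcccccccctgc
Pdk1: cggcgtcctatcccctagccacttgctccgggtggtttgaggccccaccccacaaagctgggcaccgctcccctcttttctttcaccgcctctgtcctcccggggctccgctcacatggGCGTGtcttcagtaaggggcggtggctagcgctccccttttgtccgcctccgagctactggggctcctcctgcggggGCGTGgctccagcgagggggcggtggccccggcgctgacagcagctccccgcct
Higd1a: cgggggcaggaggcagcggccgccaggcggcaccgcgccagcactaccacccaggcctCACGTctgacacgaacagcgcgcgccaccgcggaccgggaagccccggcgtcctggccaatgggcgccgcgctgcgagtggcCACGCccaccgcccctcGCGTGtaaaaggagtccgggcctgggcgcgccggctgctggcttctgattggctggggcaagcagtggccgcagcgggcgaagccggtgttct
Ak4: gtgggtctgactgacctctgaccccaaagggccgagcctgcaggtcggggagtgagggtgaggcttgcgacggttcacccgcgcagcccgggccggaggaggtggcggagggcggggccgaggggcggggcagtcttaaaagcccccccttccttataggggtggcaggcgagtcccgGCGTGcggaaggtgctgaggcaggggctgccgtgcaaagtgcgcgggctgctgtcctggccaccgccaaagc
Slc16a3: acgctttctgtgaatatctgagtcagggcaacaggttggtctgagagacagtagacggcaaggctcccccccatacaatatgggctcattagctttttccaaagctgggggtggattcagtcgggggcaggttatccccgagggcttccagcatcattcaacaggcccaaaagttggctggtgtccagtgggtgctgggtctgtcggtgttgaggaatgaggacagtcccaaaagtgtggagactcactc
Ndufa4l2: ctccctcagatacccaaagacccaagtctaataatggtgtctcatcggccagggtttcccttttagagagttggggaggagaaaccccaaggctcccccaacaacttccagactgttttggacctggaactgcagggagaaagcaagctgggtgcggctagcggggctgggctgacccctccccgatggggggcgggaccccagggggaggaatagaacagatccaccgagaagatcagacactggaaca
Plod2: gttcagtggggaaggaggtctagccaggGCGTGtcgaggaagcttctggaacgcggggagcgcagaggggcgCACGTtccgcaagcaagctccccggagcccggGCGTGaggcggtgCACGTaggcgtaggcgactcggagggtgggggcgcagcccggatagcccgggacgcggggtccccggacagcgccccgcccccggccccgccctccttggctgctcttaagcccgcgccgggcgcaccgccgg

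The Slc2a1 window held 4 matches, starting at positions -153, -76, -51 and -16 where -1 is the last base before the start. Higd1a held 3, Pdk1 held 2, Ak4 held 1, and Slc16a3 and Ndufa4l2 held 0. The 4 matches in Plod2 show that a match did not go with a lower intensity in every case. Of the 10 members at least 2-fold lower, 7 had a match in the window (70%), as did 14 of 19 other measured members with a window (73.7%), while 36.7% of all 33469 windows did. Members with more than 1 annotated start were counted once, as holding a match if any window did. A match is a string of letters and not a measured binding site, and windows further upstream, introns and enhancers were not searched.

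Glucose entry was represented by Slc2a1, the widely expressed glucose carrier GLUT1. Its 2 probe sets read 4837.6 and 11151.8 on the aortic array and 1305.1 and 4225 on the endocardial array. Both were dimmer on the endocardial array, by 3.71-fold and 2.64-fold, and their median log2 ratio was -1.65. The first endocardial value was under the brightest background control, and against that control the first probe set was at least 2.77-fold lower.

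Hexokinases phosphorylate glucose and so trap it in the cell. Hk2, the isoform known to be induced by HIF-1 and insulin, had 2 probe sets that differed in size: 1 went from 3158.1 to 812, a log2 ratio of -1.96, and the other from 7879.4 to 5965.3, a log2 ratio of -0.40. The first endocardial value was under the brightest background control, so the 2-fold call of Hk2 (log2 ratio -1.18) rests on that probe set. Hk1, the housekeeping isoform, read 3927.6 and 7529.7 on the aortic and 3547.5 and 5848.4 on the endocardial array, log2 ratios of -0.15 and -0.37. The array also carries 3 control probe sets along the hexokinase transcript, outside the rule, and these had log2 ratios of -0.55 (5' end), -1.44 (middle) and -0.60 (3' end). All 3 endocardial values, 1021.7 (5' end), 1244.1 (middle) and 1729.4 (3' end), were under the brightest background control. The aortic value of the 5' one, 1497.8, was under it as well.

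Phosphofructokinase makes fructose 1,6-bisphosphate at the first committed step of glycolysis. All 3 of its subunit genes were lower by less than 2-fold. The liver-type subunit Pfkl went from 3498.9 to 2625.3 (log2 ratio -0.42). The platelet-type subunit Pfkp went from 3115.6 to 2467 and from 9330.5 to 5339.9 on its 2 probe sets, which were made from the same sequence and had log2 ratios of -0.34 and -0.81. The muscle-type subunit Pfkm, at 4895.5 and 4311.7 on its brighter probe set, had a log2 ratio of -0.12 over both.

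The bifunctional Pfkfb enzymes make and remove fructose 2,6-bisphosphate, the activator of phosphofructokinase. Pfkfb4, an isoform known from testis and from hypoxic cells, was the only member past 2-fold in the direction of the endocardium. It went from 697.2 to 2729.3 on 1 probe set, 3.91-fold, and the aortic value was under the brightest background control, against which it was at least 1.57-fold higher. Pfkfb1, the liver and muscle isoform, went the other way on its only probe set above the floor, from 2869.8 to 2162.2 (log2 ratio -0.41), and its 3 other probe sets did not reach the floor. Pfkfb3, the isoform most linked to endothelial glycolysis, was near the floor at 717.9 and 491.7 on 1 probe set and below 0 on both arrays on the other. Pfkfb2, the heart isoform, read 284.3 and 195.6 on its brighter probe set, under the floor each time.

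Aldolase splits the 6-carbon sugar into trioses. Aldoa, the ubiquitous isoform, went from 45404.3 to 24709.2 on 1 probe set, 1.84-fold lower on the endocardial array. Aldoc, the brain isoform and a known hypoxia target, went from 4745 to 2578.9 on its brighter probe set, also 1.84-fold lower. Its other probe set read 1594.1 and 299.5, both under the brightest background control, and brought the median of the gene to at least 2.15-fold lower.

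The enzymes of the lower pathway gave bright readings and were lower by less than 2-fold. Pgam1, phosphoglycerate mutase, had 3 probe sets that went from 46748.2 to 34031.8, from 40776.1 to 29672.8 and from 33790.5 to 24526.8. Their log2 ratios were -0.46, -0.46 and -0.46, so the 3 readings did not differ at this precision. Pgk1, the first ATP-yielding kinase of the pathway, went from 41874.3 to 28133.7 and from 42408.8 to 36855.1 on its bright probe sets, and its median log2 ratio over 3 was -0.58.

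Eno1, the ubiquitous enolase, went from 47119.7 to 34076.7 and from 66275.6 to 51948.6, with a median log2 ratio of -0.41. Pkm, pyruvate kinase, went from 63970.9 to 41066.6 on 1 probe set, a log2 ratio of -0.64. Transcripts of the muscle isoforms were dim. Pgam2 was at 612.6 and 1017.9, both under the brightest background control, and Eno3 was below 0 on both arrays. Of 15 cardiac and skeletal muscle markers on the array 7 were above the floor, and 1 of these, Tnni3, exceeded that control.

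Gapdh, Ldha and Tpi1 are central enzymes that the rule left out, since each of their probe sets was annotated to further loci with similar symbols as well. Their readings were of the same size as those above. The Gapdh probe set went from 80415.2 to 58139.6 (log2 ratio -0.47), that of Ldha from 59130.4 to 42166.8 (-0.49) and that of Tpi1 from 39261.4 to 27572.7 (-0.51). The 3 Gapdh control probe sets had log2 ratios of -0.39 at the 3' end, -0.54 in the middle and -0.44 at the 5' end. Gapdh is often used as a loading reference, and on these arrays it was 1.38-fold lower on the endocardial side.

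The brightest probe sets as a whole leaned the same way. Of 325 probe sets above 20000 on both arrays, 70.5% were lower on the endocardial array, with a median log2 ratio of -0.12 and a 10th percentile of -0.41. The 11 member probe sets among them, of 7 genes, had a median of -0.46; 10 were lower, and 8 lay at or under that 10th percentile. The 3 beta-actin control probe sets had log2 ratios of -0.18, -0.17 and -0.16, and the bright CreX spike-in control, added to both samples, had -0.06 and 0.01. The ratio of 3' to 5' intensity was 1.17 (aortic) and 1.21 (endocardial) for Gapdh, and 1.11 and 1.09 for beta-actin.

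**Figure D2:**
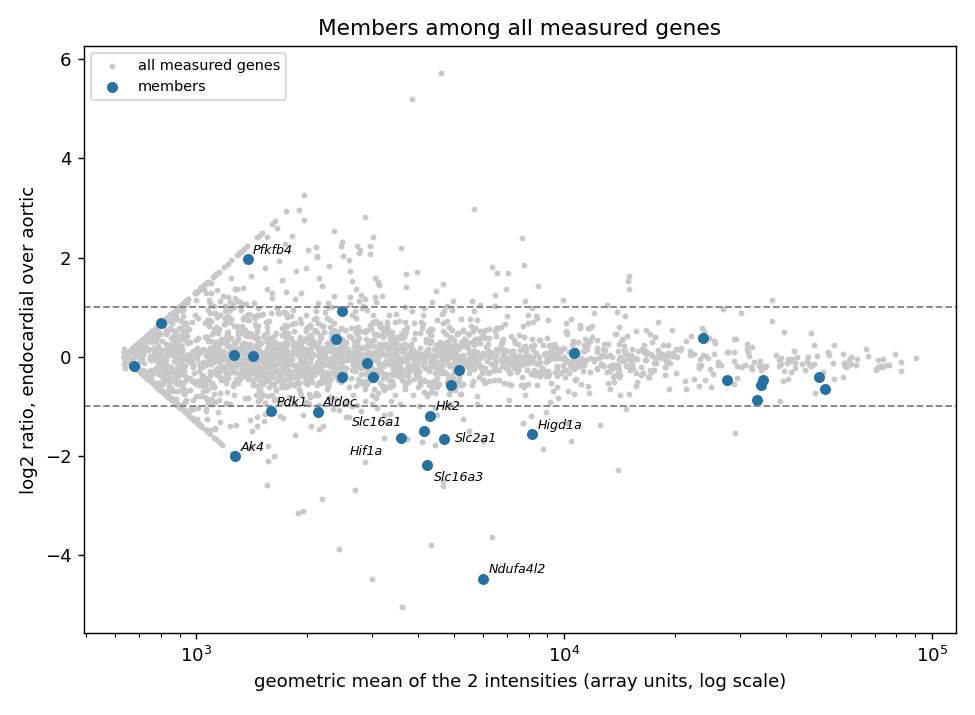
Log2 ratio of each measured gene (endocardial over aortic) against the geometric mean of its intensities on both arrays (log axis), with values under the floor set to it; grey points are all 2935 measured genes and blue points the 30 measured members. Dashed lines mark 2-fold; the 11 members past it are named, 10 of them below the lower line and Pfkfb4 above the upper line.

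Lactate output held some of the largest differences. Slc16a3, the monocarboxylate transporter MCT4 known as the lactate exporter of glycolytic cells and a hypoxia target, went from 8979.1 to 1998.3 on 1 probe set, 4.50-fold lower. Slc16a1, the transporter MCT1, which can carry lactate in either direction, went from 6050.3 to 2227.2 and from 7971.4 to 2735 on 2 probe sets, with log2 ratios of -1.44 and -1.54. All 6 of these values were above the brightest background control. Bsg, the chaperone that takes both transporters to the membrane and no member of the list, went from 34771.3 to 23938.2 (log2 ratio -0.54).

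Ldhb, the heart-type lactate dehydrogenase subunit that favours lactate use, was higher on the endocardial array. Its 2 probe sets, made from the same sequence, went from 2344.8 to 2900.8 and from 1327.3 to 3858.3, with log2 ratios of 0.31 and 1.54. Both were brighter on the endocardial array, but they differed by 1.23 in log2 ratio, and the second aortic value was under the brightest background control. Ldha and Ldhb thus went in opposite directions on these arrays.

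The entry of pyruvate into the tricarboxylic acid cycle is set by the pyruvate dehydrogenase complex and the kinases that switch it off. Pdk1, the kinase induced by HIF-1, went from 2330.2 to 1094.7, 2.13-fold lower, and against the brightest background control at least 1.34-fold. Pdk2, a kinase not known as a main HIF-1 target, read 1409 and 1436.2, both under that control. Pdha1, the catalytic subunit of the complex, had nearly equal readings, from 7846.7 to 8325.3 and from 12801.7 to 13535.2, with log2 ratios of 0.08 and 0.08.

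Among the oxygen-sensing genes, Hif1a went from 6343.5 to 2032.8 on 1 probe set, 3.12-fold lower on the endocardial array, with both values above the brightest background control. The amount of Hif1a protein, which is set largely by its degradation, was not measured. Egln3, a prolyl hydroxylase and itself a HIF target, had 2 probe sets of opposite sign, from 1341.4 to 1731.6 and from 1106 to 902.8, all under that control. Its log2 ratio of 0.04 therefore shows neither an equal nor a different level.

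Ndufa4l2 had the largest difference of any member. Its 5 probe sets read 20858.3, 25637, 26910.8, 29872.7 and 36031.3 on the aortic array. In the same order they read 397.6, 1361.4, 1790.9, 1348 and 783.6 on the endocardial array. Their log2 ratios ran from -5.52 to -3.91, and 4 of the 5 endocardial values were under the brightest background control. Against that control the folds were at least 12.0 to at least 20.7, and 15.0 for the probe set with both values above it. Of the 5 probe sets, 4 carry the suffix _f_, which the array maker gave to sets whose probes are not unique to 1 sequence. The probe set with both values above that control carries the suffix _i_ instead. The pairing of all 5 with Ndufa4l2 comes from the platform annotation alone, and the uniqueness of their probes was not checked.

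Higd1a, a mitochondrial protein of the inner membrane induced by hypoxia, went from 26650.2 to 9067.2 on its bright probe set, 2.94-fold lower. Its other probe set went from 1882 to 308.8, under the floor, and was at least 2.96-fold lower against the floor of 635.0. Ak4, a mitochondrial adenylate kinase and known hypoxia target, went from 2547.4 to 525.4 on 1 probe set, at least 4.01-fold lower against the floor and at least 1.46-fold against the brightest background control.

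The collagen-modifying hydroxylases, also known HIF-1 targets, went in opposite directions. P4ha1, the catalytic subunit of collagen prolyl hydroxylase, went from 32557.7 to 23659.8 (log2 ratio -0.46). Plod2, the lysyl hydroxylase that directs collagen cross-links, went from 20882.3 to 27309.2 (log2 ratio 0.39). Mxi1, a MYC antagonist that HIF-1 induces, went from 2116.8 to 2727.7 (log2 ratio 0.36), and its other probe set was below 0 on both arrays. These 3 differences are less than 2-fold and rest on 1 probe set each.

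**Figure D3:**
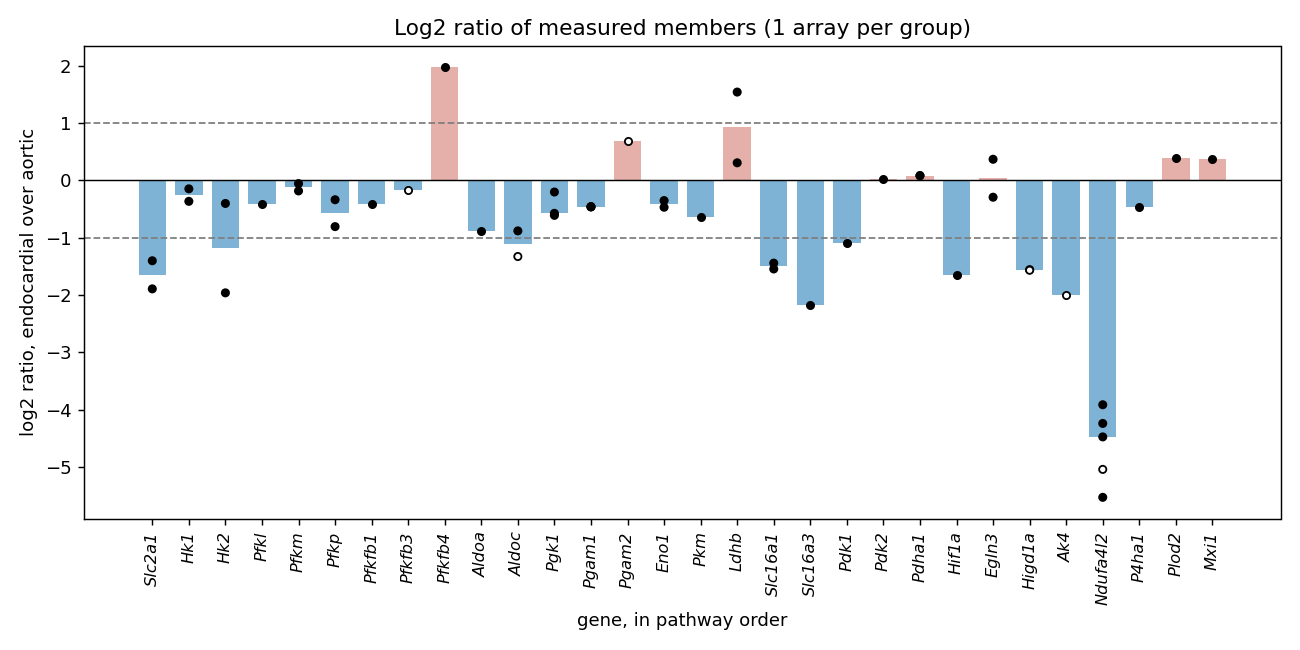
Log2 ratio (endocardial over aortic) of the 30 measured members in pathway order; bars are the median over probe sets, filled points are probe sets with both values above the floor and open points have 1 value at the floor. Dashed lines mark 2-fold. The carriers (Slc2a1, Slc16a1 and Slc16a3), Hif1a, Ndufa4l2, Pdk1, Higd1a and Ak4 lie below the lower line on all their probe sets.

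The spread among probe sets of the same gene gives a measure of precision within these arrays. The SD of their log2 ratios was 0.39 over 625 genes with several probe sets that exceeded the floor on each array, and 0.49 over 13 such members. Of the 15 members with several probe sets above the floor on at least 1 array, 14 had all of them on the same side of 0, Egln3 being the other. The same share over all genes was not computed, so this count is no trait of the members. In 5 of these members 2 of the probe sets were made from the same sequence. A log2 ratio such as -0.46 for P4ha1, on 1 probe set, is little larger in size than the SD of 0.39 and smaller than that of 0.49. Those of Plod2 (0.39) and Mxi1 (0.36), also on 1 probe set each, are about the size of the SD of 0.39 and under 0.49. The 12 measured catalytic enzymes from hexokinase to pyruvate kinase had a median log2 ratio of -0.52, with 11 lower (52.3% of all genes were), 2 at least 2-fold lower (Hk2 and Aldoc, against 4.16% of all genes) and 0 at least 2-fold higher (5.93%). With the floor at the brightest background control Hk2 (-0.63) and Aldoc (-0.88) no longer passed 2-fold.

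At the floor of 635.0 neighbouring pathways had medians nearer to 0 than the members did. In the tricarboxylic acid cycle 0 of 7 measured genes passed 2-fold in either direction and the median log2 ratio was -0.01. The lowest were Idh3g, an isocitrate dehydrogenase subunit (-0.17), and Sdha, a succinate dehydrogenase subunit (-0.06). The highest were Idh2, the mitochondrial NADP-dependent isocitrate dehydrogenase (0.85), and citrate synthase, Cs (0.24). Among 9 genes of the pyruvate dehydrogenase complex and pyruvate entry the median was -0.07. There, the glycerol phosphate dehydrogenase Gpd2 was at least 2-fold lower (-1.10, from 1677.6 to 780.6, both under the brightest background control) and 0 were higher. The phosphatase subunit Pdp2, whose endocardial value was under the floor, had a log2 ratio of -0.31, the malate dehydrogenase Mdh1 of 0.26 and the aspartate aminotransferase Got1 of 0.46.

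Of 5 other isoforms and carriers for glucose and lactate 0 passed 2-fold, and the median was -0.02. That median depended on the processing. Raising the floor to the brightest background control left 3 of these genes measured and moved it to -0.32. Lowering the floor to 0.25 of its main value gave -0.22, while taking the brightest probe set of each gene gave 0.22. The glucose carrier Slc2a3, GLUT3, had a log2 ratio of -0.32, going from 5335.6 to 4259.7. The insulin-responsive carrier Slc2a4 (0.22) and the fructose carrier Slc2a5 (0.66) were under the brightest background control on both arrays. In the pentose phosphate list of 4 genes, Prps2 (-1.39) and Prps1 (1.12), which make the same nucleotide precursor, passed 2-fold in opposite directions, while the transketolase Tkt had -0.18 and the transaldolase Taldo1 0.14. With the floor at that control neither Prps gene passed 2-fold. Of 6 genes of gluconeogenesis and glycogen, 1 passed 2-fold, the liver glycogen phosphorylase Pygl (-1.27), and with the floor at that control 0 did. Phosphoglucomutase, Pgm1, had -0.64, the glycogen primer Gyg1 0.21, and the brain-type phosphorylase Pygb 0.68.

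Regulators of the HIF pathway had a median log2 ratio of -0.20 over 9 measured genes, with 1 at least 2-fold lower, Myc (-1.08), and 0 higher. Arnt, the partner of Hif1a, went from 1860.7 to 1187.9 (-0.65), and the ubiquitin ligase scaffold Cul2 from 1810.6 to 1016.0 (-0.83), with aortic values close to the brightest background control. Vhl, the subunit that recognises hydroxylated Hif1a, had 0.19 with 1 value under the floor, and the kinase Mtor 0.10. With the floor at that control 0 of the 9 passed 2-fold.

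Hypoxia-inducible genes outside the list went both ways. Of 31 measured, 3 were at least 2-fold lower, against 4.16% of all genes, and 7 at least 2-fold higher, against 5.93%. The median log2 ratio was 0.12, and it was below 0 with the floor at the brightest background control (-0.13), at the 75th percentile (-0.24) or at 0.25 of the median (-0.06), and with the brightest probe set of a gene (-0.09). The lower genes were the collagen cross-linking enzyme Lox (-1.53, from 49090.2 to 17223.3), the angiogenic factor Vegfa (-1.16, from 6733.6 to 3004.9) and heme oxygenase, Hmox1 (-1.05, from 21175.2 to 10211). The higher genes were ceruloplasmin, Cp (2.03), the vasodilator peptide adrenomedullin, Adm (1.68, from 2074.2 to 6638.3), Tgfa (1.39), Tgfb3 (1.36, from 9344.7 to 23974.1), Igfbp3 (1.36), the transcription factor Ets1 (1.15) and endothelin, Edn1 (1.13). The ratios of Cp, Tgfa, Igfbp3 and Ets1 are lower bounds, since the aortic value of at least 1 probe set of each was under the floor, and Tgfa was under the brightest background control on both arrays. With the floor at that control 3 of 25 were lower and 5 higher, and with it at the 75th percentile the higher genes numbered 2. Vegfa and Adm, both known HIF-1 targets, thus differed in opposite directions between these arrays.

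**Figure D4:**
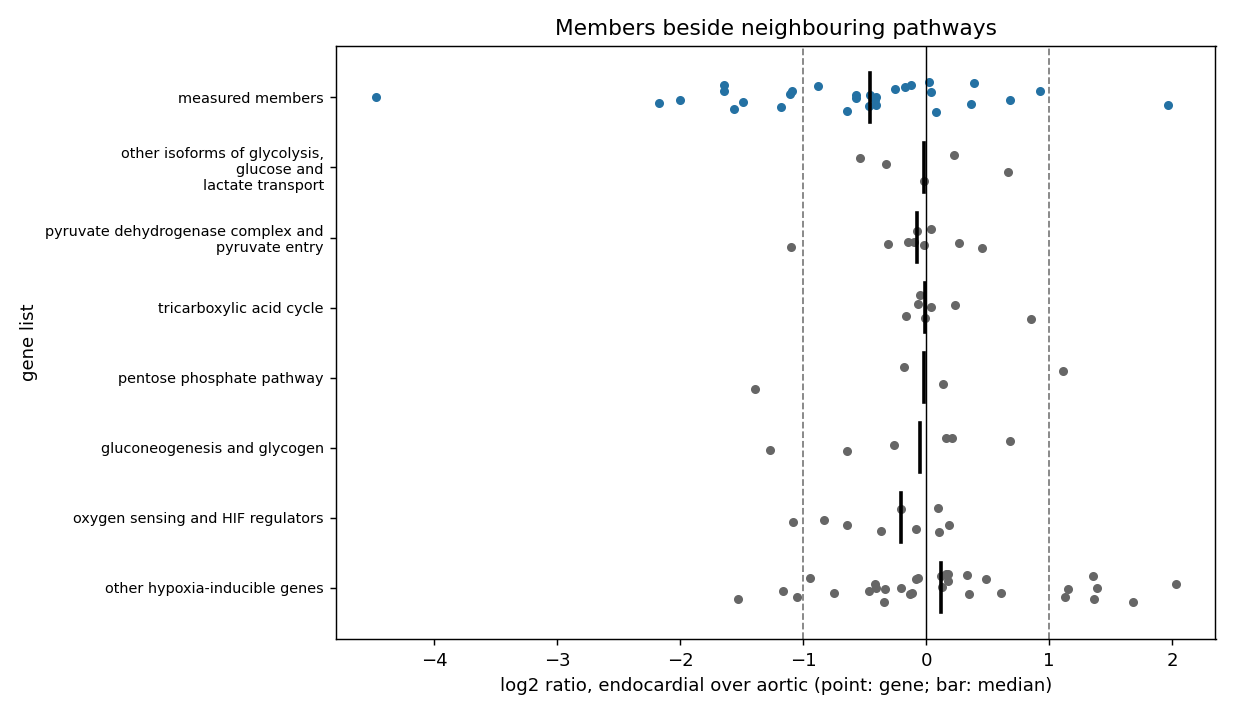
Log2 ratio (endocardial over aortic) of every measured gene in the member list (blue) and in 7 neighbouring lists (grey), with a black bar at each median; vertical positions within a row are spread to separate points. At the floor of 635.0 used here, the median of the members is -0.46, and those of the other lists lie between -0.20 and 0.12.

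Markers of several cell types differed between the arrays, and their part in the ratios above was not tested. Of 15 endothelial markers listed 9 were on the array and 5 were measured, while the defining markers Pecam1, Vwf, Kdr and Icam2 reached the floor on neither array. Thrombomodulin, Thbd (3918.4 and 2846.6 with 1 of its 2 probe sets, the other under the floor), and Edn1 (1872.8 and 4092.3) exceeded the brightest background control on both arrays, the angiotensin-converting enzyme Ace did on the aortic array (2295.5), and Flt1 and 4 of the 6 probe sets of Nos3 were above the floor on both arrays. Of 14 macrophage and leukocyte markers on the array 12 were measured. On the aortic array Cd74 exceeded the floor with 1 probe set (1450.7) but not by the median of its probe sets. By that median, 4 of the 12 markers exceeded the floor in the aortic and 12 in the endocardial sample. Their summed intensity was 10324.9 for aortic and 60296.5 for endocardial cells, of which Lyz2 gave 287.6 and 33600.6. At least 2-fold higher were 7 of the 12 (5.93% of all genes), and 2 of 9 with the floor at the brightest background control (3.99%). Each of these 7 had an aortic median under the floor of 635.0. A marker measured only through its endocardial value could not come out lower, so 7 of 12 and 5.93% are no like-for-like comparison. The same limit holds for the 2 of 9, Lyz2 and Mmp12, whose aortic values were under that control. RT1-Ba had a median log2 ratio of -0.94, but its 3 probe sets ran from -1.27 to 1.75 and so differed in sign. Ptprc (-0.09) was lower on the endocardial array, RT1-Db1 was nearly equal (0.05), and Csf1r and Itgam reached the floor on neither array. Summed endothelial markers stood at 10309.3 (aortic) and 10401.1 (endocardial), with 5 of 9 on the array measured. Summed fibroblast markers stood at 328252 and 269645 (11 of 11 on the array measured), and smooth muscle markers at 127841 and 185242 (8 of 9). Of the fibroblast sums, Lox, also listed above as hypoxia-inducible, gave 49090.2 and 17223.3, and Dcn 19136.6 and 985.9. Single markers departed from these sums in size or direction. The proteoglycan Dcn was at least 13.9-fold lower and the matricellular protein Postn 7.87-fold higher on the endocardial array. The smooth muscle myosin Myh11 was at least 3.99-fold lower (log2 ratio -0.54 with the floor at the brightest background control). In pooled cultures a different share of cells of a type and a different amount of RNA per cell cannot be told apart.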

How the data were processed

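Total RNA of each of 2 cell pools was hybridised to its own Affymetrix rat U34A array. The authors deposited 1 linear intensity per probe set and array, per the series value table, with values at or below 0 for 25.8% of aortic and 24.3% of endocardial probe sets; the sources used here do not name the summary software. Read depth does not apply, and the number of arrays limits the precision.

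The 59 control probe sets were left out (8740 remained), and the endocardial array was multiplied by 0.999 to equalise trimmed means (2% from each tail). Printed probe set values are those deposited; ratios, gene medians and marker sums use scaled values. Values under the floor (635.0) were set to it, probe sets that exceeded it on neither array were dropped (4808 kept), and a gene took the median log2 ratio of its kept probe sets. Symbols came from the platform annotation, checked by gene identifier against RefSeq (GRCr8); 0 member symbols changed. Every member was named, and of each of 7 pathway lists the 2 highest, the 2 lowest and any gene past 2-fold; for the list of other hypoxia-inducible genes these are the genes past 2-fold. The other 6 lists held cell type markers. Members and lists were chosen with earlier results of these data known; the limit of 20000 was set after values were seen. Alternatives changed scaling, floor, probe set choice and fold. Counting was tested on simulated data. Python 3.11.15, pandas 2.3.3, numpy 2.4.6 and statsmodels 0.14.6 were used.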

Additional observations from a re-analysis of the deposited data

How the results depend on the processing

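No paired analysis was possible because each group had 1 array, and for the same reason no replicate could be left out. The members at least 2-fold lower on the endocardial array numbered 10 of 30 (4.16% of all genes), 5 of 26 with the floor at the brightest background control (2.36%) and 6 of 24 with it at the 75th percentile (2.66%; Higd1a is then the addition to those 5). They numbered 7 of 26 with plain probe sets (3.92%), 8 of 30 with the brightest probe set (4.46%) and 10 under the other alternatives that kept 2-fold (3.75% to 9.57% of all genes, not computed with probe sets of several symbols added). At 3-fold in place of 2-fold they numbered 5 (1.23%), and at 1.5-fold 12 (11.2%). The members at least 2-fold higher numbered 1 (5.93% of all genes), but 0 with the floor at the brightest background control (3.99%) or at the 75th percentile. They numbered 2 when each gene took its brightest probe set, which adds Ldhb. The share of all genes at least 2-fold higher was computed for no other setting. The member probe sets at least 2-fold lower numbered 17 of 50 (4.83% of all probe sets). That count was 12 with the floor at the brightest background control, 11 with it at the 75th percentile and 8 with plain probe sets only. The last of these leaves out all 5 of Ndufa4l2 by construction. The share of all probe sets was not computed under these alternatives. The median log2 ratio of members stayed between -0.54 and -0.39. Of 286 recomputed member ratios 18 moved by more than 0.39, and 0 of the members past 2-fold changed sign. A loess of the ratio on intensity and the addition of Gapdh, Ldha and Tpi1 by their probe sets with several symbols were chosen after seeing the data, and each left the count of lower members at 10. Values under the brightest background control limit what the dim members can show.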

Other observations

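The array carries pairs of probe sets made from the same sequence, and 5 members had such a pair above the floor on both arrays. Their log2 ratios differed by 0.00056 for Pgam1, 0.035 for Pgk1, 0.12 for Eno1, 0.47 for Pfkp and 1.23 for Ldhb. Over all 372 such pairs on the arrays the median difference was 0.22 and the 90th percentile 0.76, so the pair of Ldhb, which is brighter on the endocardial array with both of its probe sets, lay above that percentile. The dimmer probe set of the Pgk1 pair read under the brightest background control on both arrays (1590.7 and 1042.8).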
